A study of Danio rerio with 3 samples.

Results

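The genes described here were the proteasome subunit genes of zebrafish, taken as every row of the deposited matrices whose symbol starts with psma, psmb, psmc or psmd. The rule found 47 of 32521 rows. By the subunit that each gene encodes, 9 rows were alpha subunits of the 20S core particle, 7 were its constitutive beta subunits, 7 were inducible or tissue-specific beta subunits, 7 were ATPases of the 19S regulatory particle, 13 were other 19S subunits and 3 (*psmd5*, *psmd9* and *psmd10*) were chaperones that help to assemble the 19S particle. The last row, *psmc3ip*, shares the prefix only. It encodes a protein of homologous recombination and is not a proteasome subunit. The 36 alpha, constitutive beta, ATPase and other 19S subunit genes are called the core subunit genes below. No row is named psma7, and *psma8* is the alpha 7-type gene of these files. The prefix is in lower case, so that the rows PSMA2, PSMD2 and PSMD4, in upper case in the files, were not members and are described once on their own.

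The samples came from larval zebrafish of which the spinal cord was lesioned at 3 days post-fertilization. The tissue reaching 3 somites to either side of the lesion was cut out 24 h later, dissociated and sorted for viable cells, and single-cell RNA libraries were made. Eggs had been injected at the single-cell stage either with highly active CRISPR RNAs (haCRs) against *sema4ab*, a semaphorin gene (gSema4ab), or with a control gRNA (gControl). The study describes 50 larvae for each condition, and gSema4ab was run as 2 libraries that the design calls technical repeats. Its methods give 50 larvae for each sample, so that the sources leave the number of gSema4ab pools unclear. The repeats were taken here as 1 pool. The haCR larvae were somatic mutants, in which cells of 1 animal can carry different alleles, and the gControl larvae were lesioned, injected and collected in the same way. With each condition taken as 1 pool, and 1 gControl library, there was no replicate check and no test between conditions. The intervals given below cover counting error only, and the difference between the repeats shows technical spread only.

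The proteasome is the protease that degrades most proteins tagged with ubiquitin in the cytosol and nucleus. Its 20S core is a barrel of stacked alpha and beta rings, in which the beta subunits PSMB5, PSMB6 and PSMB7 carry the cutting sites. The 19S particle binds the barrel, recognises and removes ubiquitin, and unfolds the substrate with its ring of ATPases. In blood and immune cells, and after interferon, inducible beta subunits take the place of the cutting ones to form the immunoproteasome, which favours peptides for presentation on MHC class I. Cells that lack proteasome capacity raise all subunit genes together through the transcription factor Nrf1 (*nfe2l1a* and *nfe2l1b* in zebrafish), as known from mammalian cells.

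After filters, 12079 and 11940 cells were kept in the gSema4ab repeats, against 12247 in gControl. Their median was 6477 and 6738 UMIs a cell in the gSema4ab repeats against 7199 UMIs in gControl, and 2006 and 2009 genes against 2357 genes. A UMI is a count of 1 captured mRNA molecule. Barcodes shared between libraries were few, with 34 and 45 between a gSema4ab repeat and gControl and 43 between the repeats. Haemoglobin genes took 5.83% and 6.51% of the UMIs in the gSema4ab repeats, against 3.89% in gControl. The targeted gene *sema4ab* was at 93.4 and 116 CPM (UMIs scaled to a total of 1e+06 UMIs in the same cells) in macrophage/microglia-like cells of the gSema4ab repeats, against 220 CPM in gControl. The cells formed 46 clusters, of which 40 received 1 of 23 class names from marker lists. The 6 unnamed clusters held 4220 cells, and 21 classes had at least 20 cells in every library and were used. UMIs were read at the 3′ end of mRNAs and do not scale with transcript length, so that no correction for length was made.

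Core subunit transcripts were most abundant in the myeloid cells. In macrophage/microglia-like cells the 36 core genes summed to 6200 and 5981 CPM in the gSema4ab repeats and to 5981 CPM in gControl. Neutrophil-like cells followed with 5049 and 5049 CPM in the gSema4ab repeats and 5211 CPM in gControl. At the other end were tenocyte-like cells, with 1812 and 1679 CPM in the gSema4ab repeats against 1331 CPM in gControl, notochord-like cells, with 1522 and 1759 CPM against 1942 CPM in gControl, and fibroblast-like cells, with 2089 and 2050 CPM against 1709 CPM. The median class was at 3079 and 2863 CPM in the gSema4ab repeats and at 2457 CPM in gControl, so that macrophage/microglia-like cells exceeded it 2.01-fold and 2.09-fold in the gSema4ab repeats and 2.43-fold in gControl. The highest class exceeded the lowest 4.07-fold and 3.56-fold in the gSema4ab repeats, against 4.49-fold in gControl.

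**Figure D1:**
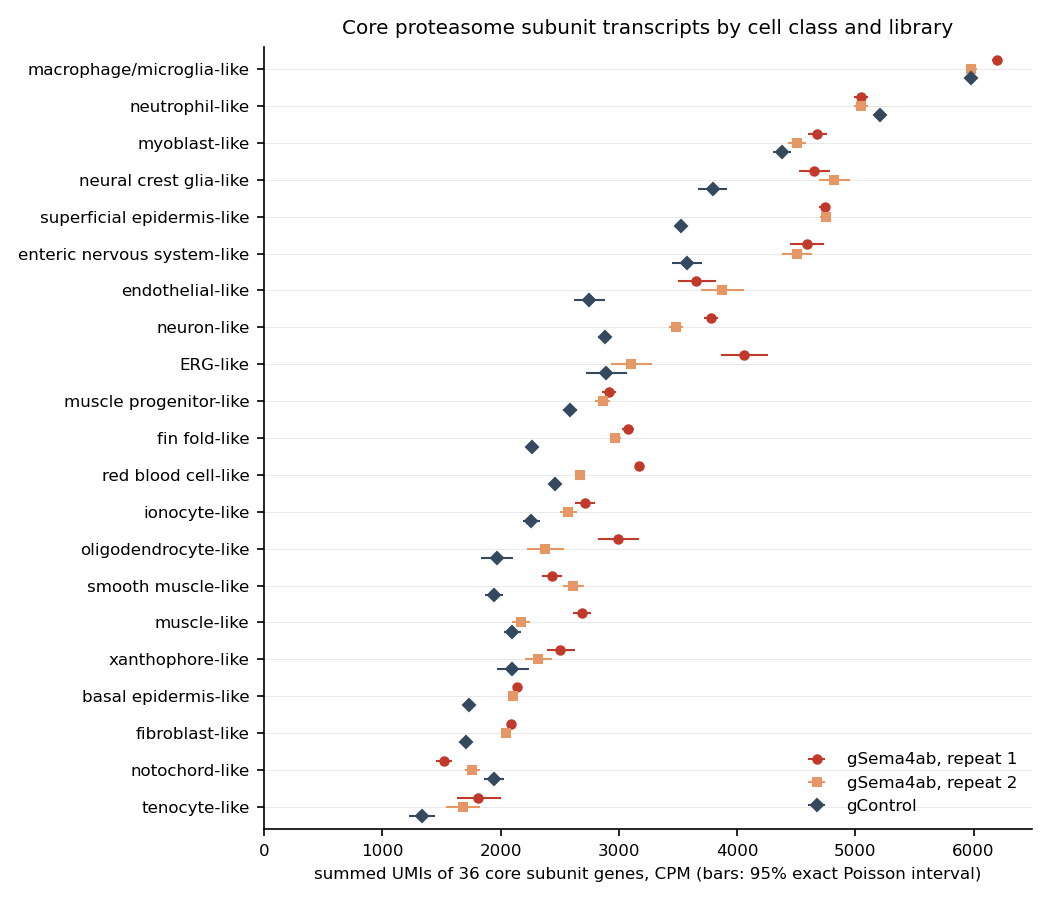
Summed UMIs of the 36 core proteasome subunit genes in CPM (x axis) in 21 marker-defined cell classes, ordered by the mean over libraries, with points for the 2 gSema4ab repeats and gControl and bars for the 95% exact Poisson interval. Macrophage/microglia-like cells lead with 6200 and 5981 CPM in the gSema4ab repeats against 5981 CPM in gControl, and tenocyte-like cells are last by the mean.

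In the order of the levels only the first steps were clear. Macrophage/microglia-like cells were above neutrophil-like cells, and these above myoblast-like cells (4677 and 4503 CPM in the gSema4ab repeats, 4378 CPM in gControl), with no overlap between the libraries of neighbours. The other 18 of 20 neighbouring pairs overlapped. From myoblast-like cells the order went on through neural crest glia-, superficial epidermis-, enteric nervous system-, endothelial- and neuron-like cells to ependymo-radial glia (ERG)-like cells, the progenitor cells of the spinal cord. Muscle progenitor-, fin fold-, red blood cell-, ionocyte-, oligodendrocyte-, smooth muscle-, muscle-, xanthophore-, basal epidermis- and fibroblast-like cells came next, ahead of notochord- and tenocyte-like cells.

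Single members were compared with the median class by a 2-fold rule that had to hold in all 3 libraries. As many as 16 members passed in macrophage/microglia-like cells, 14 of them core genes among the 35 that reached the minimum of 20 CPM there, where 34.8% of all genes tested passed the same rule. In neutrophil-like cells 4 members passed (*psma6l*, *psma8*, *psmb3* and *psmc3ip*), with 31.8% of all genes. *psma6l* also passed in superficial epidermis-like cells (29.9% of all genes) and *psmd10* in ERG-like cells (29.1% of all genes). No member passed in neuron-like cells, where 48.8% of all genes did. None passed either in basal epidermis- (22.3% of all genes), endothelial- (24.8%), enteric nervous system- (36.7%), fibroblast- (27.3%), fin fold- (26.8%), ionocyte- (36.9%), muscle- (28.4%), muscle progenitor- (18.8%) and myoblast-like cells (23.1%), or in neural crest glia- (24.6%), notochord- (18.8%), oligodendrocyte- (29.7%), red blood cell- (15.6%), smooth muscle- (29.7%), tenocyte- (24.3%) and xanthophore-like cells (20.8%). The count of members in macrophage/microglia-like cells was therefore close to what all genes gave.

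The gene with the widest range was *psma6l*, an alpha 6-type gene beside *psma6a* and *psma6b*. It stood at 66.4 and 70.5 CPM in superficial epidermis-like cells of the gSema4ab repeats, against 49.6 CPM in gControl. Its level was 39.1 and 39.3 CPM in macrophage/microglia-like cells of the gSema4ab repeats and 41.6 CPM in gControl, and in neutrophil-like cells at 22.6 and 19.7 CPM against 23.0 CPM. The median class was at 1.58 and 1.58 CPM in the gSema4ab repeats and 1.23 CPM in gControl, and *psma6l* reached the minimum in no class other than these 3. Its paralogues *psma6a* and *psma6b* were found in every class. Relative to *psma6a* and *psma6l* summed, *psma6a* took 59.4% and 58.7% in superficial epidermis-like cells of the gSema4ab repeats and 55.3% in gControl, and 80.4% and 79.5% in macrophage/microglia-like cells against 78.2% in gControl.

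**Figure D2:**
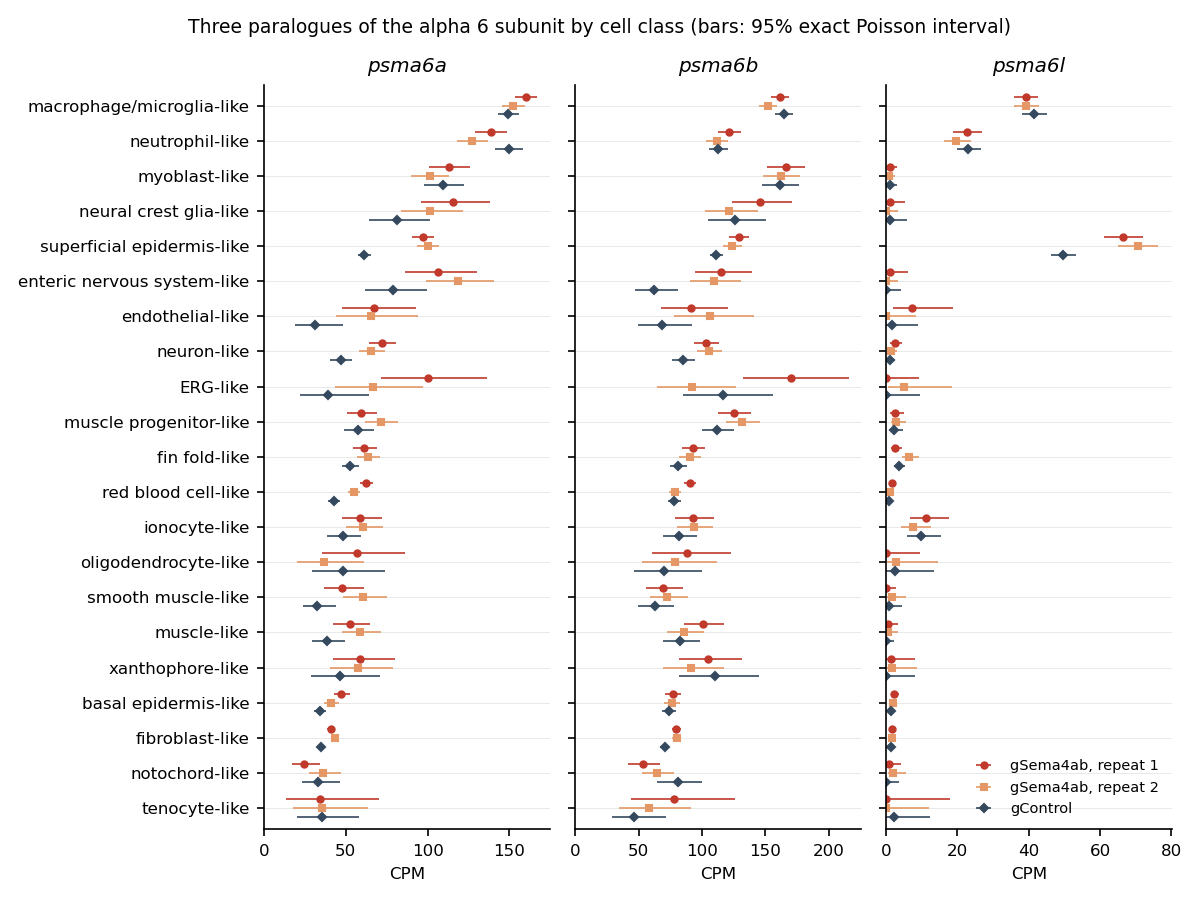
Levels of the alpha 6-type genes psma6a, psma6b and psma6l in CPM (x axes) in 21 cell classes, with points for the gSema4ab repeats and gControl and bars for the 95% exact Poisson interval. The genes psma6a and psma6b are present in every class, while psma6l stands out in superficial epidermis-, macrophage/microglia- and neutrophil-like cells.

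*psma8* was another alpha gene that leaned to the myeloid cells, at 377 and 372 CPM in macrophage/microglia-like cells of the gSema4ab repeats and 379 CPM in gControl. The median class was at 140 and 131 CPM in the gSema4ab repeats and at 99.5 CPM in gControl. In neutrophil-like cells *psma8* was at 292 and 299.5 CPM in the gSema4ab repeats and at 310.5 CPM in gControl. *psmb7*, the beta subunit with trypsin-like activity, was at 384 and 383 CPM in macrophage/microglia-like cells of the gSema4ab repeats against 323 CPM in gControl. *psmb7* was at 208 and 198 CPM over all cells in the gSema4ab repeats against 164 CPM in gControl, the most abundant member in the repeats, while *psma3* (184 CPM) and *psma8* (166 CPM) were above it in gControl, and *psmd2* and *psma6l* were the least abundant core genes. *psmb3* was at 280 and 282 CPM in neutrophil-like cells of the gSema4ab repeats against 264 CPM in gControl. *psmc3ip* exceeded its median class 6.49-fold and 9.75-fold in macrophage/microglia-like cells of the gSema4ab repeats and 4.71-fold in gControl.

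The next comparison was of gSema4ab with gControl. Over all cells the core genes were slightly higher in gSema4ab, relative to other genes. Their sum was 3705 and 3485 CPM in the gSema4ab repeats against 3226 CPM in gControl. Of 36 core genes 34 reached the minimum, and their median log2 ratio was 0.22 and 0.13 in the repeats and 0.18 with the repeats joined, when the median of all 6463 genes tested was -0.11 and -0.14, and -0.12 joined. The core genes thus lay 0.30 above all genes on the log2 scale, a difference that does not depend on how libraries are scaled. With TMM factors, which assume that most genes do not differ, all genes shifted by 0.21 and the core median became 0.39.

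These differences were small for single genes. A member was counted as past the fold when both repeats differed from gControl in the same direction by at least 0.32 on the log2 scale. None of the 36 members that reached the minimum in all cells passed in either direction, where 5.20% of all genes tested passed upward and 25.6% downward. With TMM factors 24 members passed upward, with 21.5% of all genes passing upward and 9.41% downward. By direction alone, 28 of 34 core genes were higher in both repeats relative to total UMIs and 3 were lower in both, and the shift of 0.21 takes these 3 above 0 too. All 7 constitutive beta genes, all 7 ATPase genes, 6 of 8 alpha genes and 8 of 12 other 19S genes were higher in both. The median of all genes tested was below 0 in each repeat. The share of all genes by direction alone is not given, so that these counts are descriptions only.

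The constitutive beta genes led. *psmb3*, a structural beta subunit, was at 173 and 159.5 CPM in the gSema4ab repeats against 133 CPM in gControl, a log2 ratio of 0.33. *psmb5*, the beta subunit with chymotrypsin-like activity, was at 107 and 101 CPM in the gSema4ab repeats against 82.7 CPM in gControl, also a log2 ratio of 0.33. The other cutting subunits were *psmb7* (log2 0.31) and *psmb6*, with caspase-like activity, at 173 and 167 CPM in the gSema4ab repeats against 152 CPM in gControl (log2 0.16). The median log2 ratio was 0.27 for the constitutive beta genes, 0.22 for the ATPase genes and 0.14 for both the alpha and the other 19S genes. In these last, *psmd6*, a subunit of the lid, was at 54.7 and 50.2 CPM in the gSema4ab repeats against 41.7 CPM in gControl (log2 0.33). Of the core genes that reached the minimum 3 were lower in both repeats, all of them 19S subunits. These were *psmd1*, a large scaffold of the base (log2 -0.14), *psmd12* of the lid (log2 -0.11) and *psmd13* of the lid (log2 -0.10). Below the minimum, *psmd2* (log2 -0.69) and the alpha gene *psma6l* (log2 -0.11) were lower in both repeats too. In superficial epidermis-like cells, its highest class, *psma6l* was higher in the repeats (66.4 and 70.5 CPM against 49.6 CPM in gControl). That class held 892 and 875 cells in the gSema4ab repeats against 1212 in gControl. A ratio over all cells also depends on the share of cells in each class, and the part of this was not tested.

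By cell class the ratio was uneven. The core median was above 0 in both repeats in 18 of 21 classes and below 0 in both in neutrophil- and notochord-like cells, while the repeats were split in macrophage/microglia-like cells. With equal weight for each cell it was above 0 in both repeats in 16 classes. The median of all genes lay below 0 in both repeats in 20 of 21 classes, superficial epidermis-like cells being the exception, and the core median exceeded it in both repeats in 20 of 21, notochord-like cells being the exception. Over the classes, 714 pairs of a core gene and a class reached the minimum, of which 212 were past the fold upward and 17 downward. Of all pairs of a gene and a class, 11.7% were past it upward and 23.0% downward. With TMM factors the core pairs numbered 346 upward and 9 downward, with 18.6% and 14.7% of all pairs, and with gSema4ab repeat 1 or 2 left out they numbered 258 to 335 upward and 32 to 35 downward. The share of all pairs with a repeat left out is not given, so that this range shows only the dependence on the repeat.

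**Figure D3:**
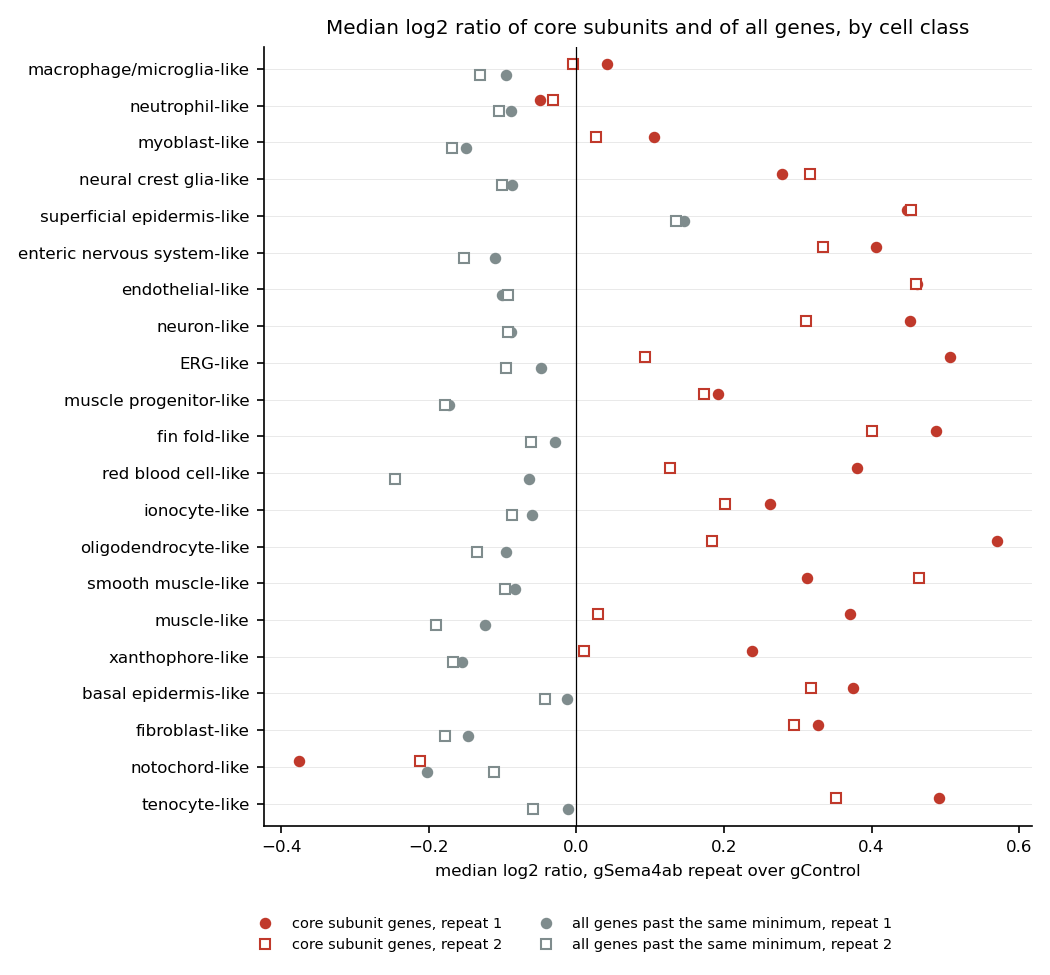
Median log2 ratio of each gSema4ab repeat over gControl (x axis) in 21 cell classes, for the core proteasome subunit genes and for all genes past the same minimum. The core genes lie to the right of all genes in every class except notochord-like cells, and near 0 in macrophage/microglia-like and neutrophil-like cells.

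By total UMIs, the largest count was in superficial epidermis-like cells. There the core sum was 4739 and 4750 CPM in the gSema4ab repeats against 3526 CPM in gControl, the core median was 0.45 in each repeat, and 26 of 35 core genes were past the fold upward. In these cells, though, 32.6% of all genes were past it upward. With TMM factors 17 core genes passed there (26.1% of all genes), fewer than the 28 in fibroblast-like cells (24.1% of all genes). *psmb3* was at 262 and 245 CPM in the gSema4ab repeats against 149.5 CPM in gControl (log2 0.76, 95% counting interval 0.69 to 0.83). *psmd6* was at 77.7 and 77.5 CPM against 47.0 CPM in gControl (log2 0.72, 0.59 to 0.86), and *psma6a* at 97.0 and 100 CPM against 61.4 CPM in gControl (log2 0.68, 0.57 to 0.80). Of the clusters of this class, cluster 5 held 353 and 345 cells in the gSema4ab repeats and 801 in gControl, and cluster 6 held 539 and 530 cells against 411. The core median was 0.45 in cluster 5 and 0.43 in cluster 6, close to that of the class.

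Neuron-like cells had a core sum of 3780 and 3480 CPM in the gSema4ab repeats against 2880 CPM in gControl, and a core median of 0.45 and 0.31 in the repeats. Of 35 core genes 15 were past the fold upward and 1 downward, with 10.6% of all genes upward and 21.4% downward. *psmb1*, a structural beta subunit, was at 202 and 192 CPM in the gSema4ab repeats against 124 CPM in gControl (log2 0.67, 0.52 to 0.82). *psmd11a* of the lid was at 71.1 and 64.3 CPM against 44.6 CPM in gControl (log2 0.60, 0.36 to 0.85), and *psmb7* at 219 and 205 CPM against 143 CPM in gControl (log2 0.57, 0.43 to 0.70). The gene that was lower was *psmd2*, the other large scaffold of the base, at 18.5 and 19.4 CPM in the gSema4ab repeats against 26.5 CPM in gControl (log2 -0.48, -0.85 to -0.12). Summed with its upper-case row PSMD2, it was at 60.2 and 50.7 CPM in the gSema4ab repeats against 66.2 CPM in gControl (log2 -0.14 and -0.38), and no longer past the fold.

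Fibroblast-like cells, the largest class, had a core sum of 2089 and 2050 CPM in the gSema4ab repeats against 1709 CPM in gControl. The core median was 0.33 and 0.29 in the repeats, and 13 of 33 core genes were past the fold upward, with 7.63% of all genes. *psmb1* was at 97.9 and 98.7 CPM in the gSema4ab repeats against 69.2 CPM in gControl (log2 0.51, 0.42 to 0.59), *psmc1a*, an ATPase, at 38.4 and 38.1 CPM against 28.1 CPM in gControl (log2 0.45, 0.32 to 0.58), and *psmb7* at 95.1 and 92.2 CPM against 68.9 CPM in gControl (log2 0.44, 0.36 to 0.53). All 6 fibroblast-like clusters had a core median above 0, between 0.16 and 0.39.

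Core genes past the fold upward numbered 21 of 34 in endothelial-like cells (14.3% of all genes), which had only 62 and 51 cells in the gSema4ab repeats and 73 in gControl. They numbered 21 of 34 in fin fold-like cells (13.4%), 17 of 35 in enteric nervous system-like cells (12.8%), 16 of 34 in smooth muscle-like cells (11.6%) and 16 of 33 in basal epidermis-like cells (13.7%). In 12 of the 21 classes at least 10 core genes passed. In ERG-like cells the repeats disagreed on the size, with a core sum of 4059 and 3101 CPM in the gSema4ab repeats against 2892 CPM in gControl and a core median of 0.51 and 0.093, and 10 of 34 passed (15.7%). In oligodendrocyte-like cells the core median was likewise 0.57 and 0.18, with 12 of 34 past the fold (14.5%).

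Of the classes not yet named, upward calls numbered 11 of 30 core genes in tenocyte-like cells (15.6% of all genes), 10 of 35 in neural crest glia-like cells (10.9%), 8 of 34 in ionocyte-like cells (15.2%), 6 of 34 in xanthophore-like cells (13.5%) and 4 of 34 in muscle-like cells (8.47%). In muscle progenitor-like cells 0 of 34 passed (4.78%), and in myoblast-like cells 1 of 35 passed upward (3.41%) and 2 downward (23.6%). With TMM factors 15 passed upward in muscle progenitor-like cells (16.7% of all genes) and 10 in myoblast-like cells (13% of all genes). Downward calls were otherwise rare. ERG- and oligodendrocyte-like cells had 1 each, with 21.9% and 23.6% of all genes downward. In the remaining classes other than neuron- and notochord-like cells 0 core genes that reached the minimum were past the fold downward, while 31.0% of all genes were in fibroblast-like cells, 30.7% in xanthophore-like cells, 28.2% in muscle-like cells, 26.2% in muscle progenitor-like cells and 26.1% among red blood cell-like cells. The share of all genes was 25.4% in enteric nervous system-like cells, 24.1% in ionocyte-like cells, 23.8% in endothelial-like cells, 21.6% in neural crest glia-like cells, 21.0% in smooth muscle-like cells and 20.6% in macrophage/microglia-like cells. Basal epidermis-like cells had 19.7%, fin fold- and neutrophil-like cells 18.4% each, tenocyte-like cells 17.1% and superficial epidermis-like cells 17.0%.

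The myeloid cells had the smallest ratios. In macrophage/microglia-like cells the core median was 0.042 and -0.0039 in the repeats, and 0 of 35 core genes were past the fold in either direction, with 3.77% of all genes upward. In neutrophil-like cells the median was -0.049 and -0.032, and 0 of 35 passed, with 4.29% of all genes upward and 18.4% downward. With TMM factors of each class, the medians were 0.20 in macrophage/microglia-like cells and 0.11 in neutrophil-like cells, so that the sign in neutrophil-like cells depended on the scaling. By its mean over the libraries *psmd2* was below the minimum in both classes and is outside these counts. Alone it had 186 and 175 UMIs in macrophage/microglia-like cells of the gSema4ab repeats against 391 in gControl. In neutrophil-like cells it had 69 and 72 UMIs against 222. Summed with PSMD2, it had 811 and 711 UMIs in macrophage/microglia-like cells of the gSema4ab repeats (of 13064686 and 12129834) against 1204 of 13631761 in gControl. In neutrophil-like cells the sum was 290 and 306 UMIs (of 5707368 and 5491897) against 605 of 8018386. Relative to total UMIs, this sum was lower past the fold in both repeats of both classes.

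Notochord-like cells were the class in which core genes were lower. Their core sum was 1522 and 1759 CPM in the gSema4ab repeats against 1942 CPM in gControl, the core median was -0.38 and -0.21, and 12 of 33 core genes were past the fold downward and 1 upward, with 25.1% of all genes downward and 9.16% upward. The class had 189 and 234 cells in the gSema4ab repeats and 134 in gControl. Genes of cell division, a fixed list, summed to 79.3 and 95.4 CPM there in the gSema4ab repeats against 258 CPM in gControl, while cells with at least 2 detected division genes were 6.88% and 8.97% of the class in the gSema4ab repeats (13 and 21 cells) against 3.73% in gControl (5 cells). Without those cells the core median was -0.43 and -0.041 in the repeats and -0.27 joined. When every cell was given the same weight, by a mean of CPM per cell, the core median became 0.22, and 1 core gene was past the fold downward. With doublets kept the median was -0.071 and 3 were past the fold downward, and with TMM factors the median was -0.076. The direction in this class thus held without the dividing cells and depended on how cells were averaged.

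**Figure D4:**
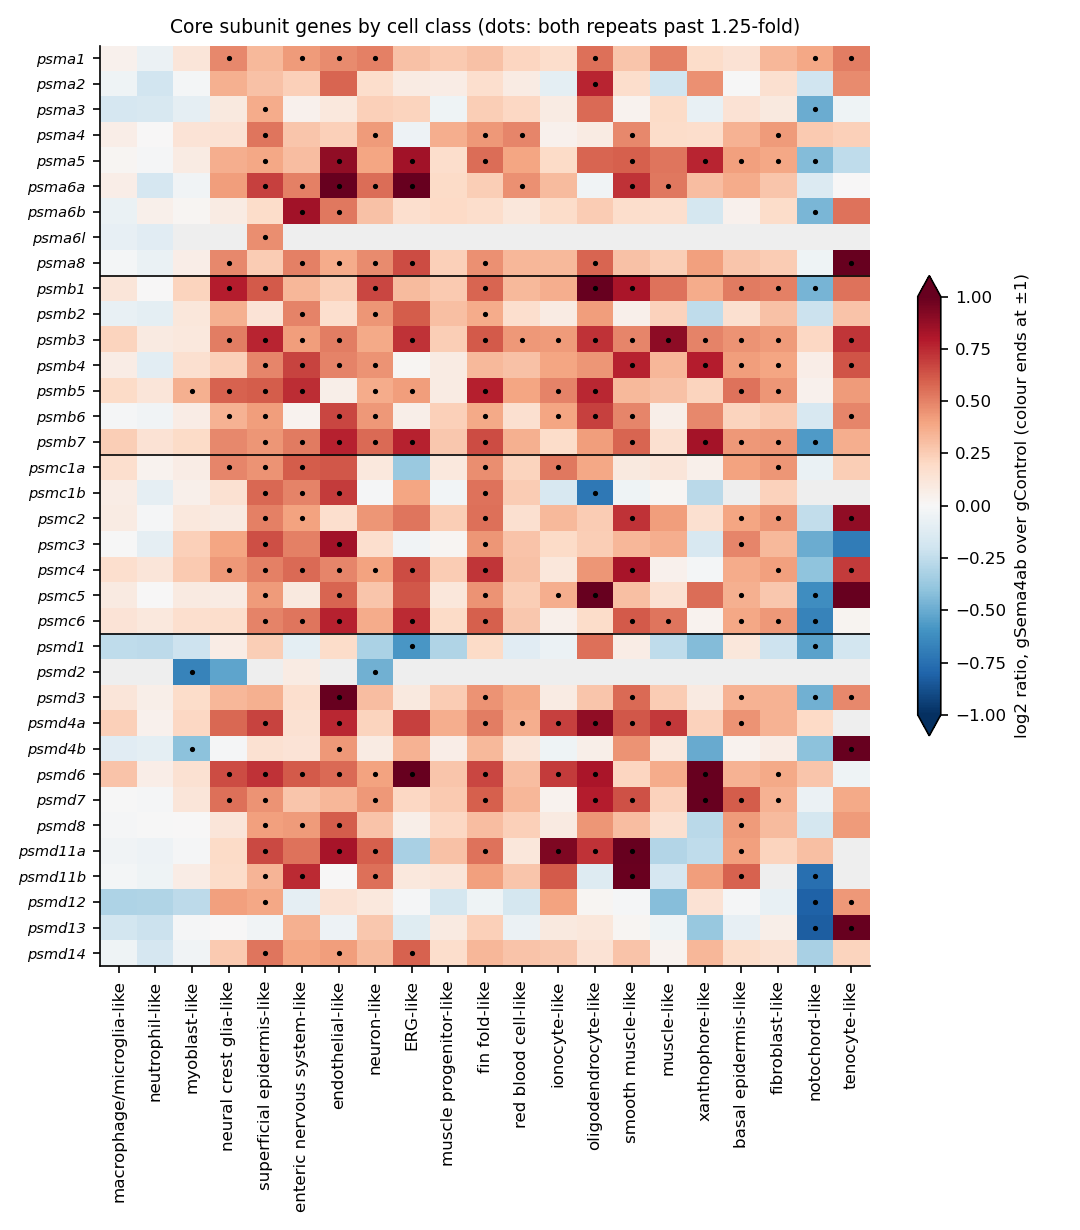
Log2 ratio of gSema4ab (repeats joined) over gControl for the 36 core subunit genes (rows, grouped as alpha, constitutive beta, ATPase and other 19S) in 21 cell classes (columns), in colour that ends at 1 and -1. Dots mark genes past the fold (log2 0.32) in both repeats and grey marks genes below the minimum. Most dots are red, the first 2 columns (macrophage/microglia- and neutrophil-like) have none, and the blue dots gather in the notochord-like column.

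The balance between subunits also differed, and this does not depend on scaling, as it uses core UMIs alone. The shares of the groups add up to the whole, so that they are not independent of each other. Over all cells the constitutive beta genes made up 29.8% and 29.9% of core UMIs in the gSema4ab repeats, against 28.2% in gControl. The 19S genes other than ATPases made up 25.9% and 26.2% in the gSema4ab repeats, against 27.6% in gControl. The smaller share was not common to all genes of this group. Relative to total UMIs, *psmd1*, *psmd2*, *psmd12* and *psmd13* were lower in both repeats (log2 -0.14, -0.69, -0.11 and -0.10). Of the 12 that reached the minimum 8 were higher in both. The upper-case row PSMD2 is not in these sums. The alpha genes had 31.3% and 31.1% against 31.9% in gControl, and the ATPase genes 12.97% and 12.8% against 12.4% in gControl. The counts behind these shares were 420244 and 398254 core UMIs in the gSema4ab repeats and 395679 in gControl. The beta share was larger, and the share of other 19S genes smaller, than in gControl by 1.67 and 1.56 percentage points with the repeats joined.

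This shift ran through nearly all classes. The constitutive beta share was higher in both repeats in 20 of 21 classes and lower in both in 0, endothelial-like cells being the exception with 26.8% and 28.5% in the gSema4ab repeats against 27.9% in gControl. The share of the other 19S genes was lower in both repeats in 20 of 21 classes and higher in both in 0, tenocyte-like cells being the exception with 24.4% and 27.4% against 26.6% in gControl. The alpha share went both ways, higher in both repeats in 5 classes and lower in both in 10, and so did the ATPase share, higher in 10 and lower in 5.

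The shift was also seen in macrophage/microglia-like cells, where the summed level differed little. There the constitutive beta share was 30.5% and 30.5% in the gSema4ab repeats against 28.6% in gControl, and the share of other 19S genes 24.9% and 24.9% against 26.4%. In neuron-like cells, where core genes were higher, the beta share was 29.4% and 29.5% in the gSema4ab repeats against 26.5% in gControl, and the other 19S share 29.8% and 30.6% against 33.1%. In notochord-like cells, where core genes were lower, the beta share was still 28.4% and 29.2% in the gSema4ab repeats against 27.6% in gControl. All classes of a library were made in 1 run from 1 pool, so that the classes are not independent of each other here.

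Among pairs of gene and class, 65 of 147 constitutive beta pairs were past the fold upward (44.2%), 46 of 144 ATPase pairs (31.9%), 42 of 171 alpha pairs (24.6%) and 59 of 252 pairs of other 19S genes (23.4%). Of all pairs of a gene and a class 11.7% were past it upward. In single classes the share of all genes past it upward lay between 3.35% and 32.6%. *psmb3* was past the fold upward in 15 classes, *psmb5* and *psmd6* in 11, and *psmb7* and *psmc4*, an ATPase, in 10. The gene that went most often the other way was *psmd1*, lower in both repeats in 13 classes, though past the fold in only 2 of them (ERG- and notochord-like cells), followed by *psmd12*, lower in both in 10. *psmd1* was at 110.6 and 104.7 CPM over all cells in the gSema4ab repeats against 119 CPM in gControl.

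*psmd2* was low in these matrices and split over rows. It was at 10.99 and 12.09 CPM over all cells in the gSema4ab repeats against 18.6 CPM in gControl, below the minimum. The files hold a separate row PSMD2 in upper case, at 30.46 and 30.03 CPM in the gSema4ab repeats against 33.0 CPM in gControl. Of the UMIs of both rows, *psmd2* took 26.5% and 28.7% in the gSema4ab repeats (1246 of 4701 and 1381 of 4813) against 36.04% in gControl (2281 of 6329), and this share was lower in both repeats in 16 of 21 classes and higher in both in 0. The rows summed to 41.5 and 42.1 CPM in the gSema4ab repeats against 51.6 CPM in gControl (log2 -0.30). How reads were divided between the rows when the files were made is not known, so that *psmd2* alone is uncertain. The row PSMA2 was at 119 and 115 CPM in the gSema4ab repeats against 110.5 CPM in gControl, beside *psma2*, and PSMD4 had 0 and 1 UMIs in the gSema4ab repeats and 1 in gControl.

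Subunits encoded by a pair of paralogues were compared within the pair. Of *psmd4a* and *psmd4b*, which encode the ubiquitin receptor of the 19S particle, *psmd4a* took 51.3% and 53.9% in all cells of the gSema4ab repeats against 46.6% in gControl. Its share was higher in both repeats in 18 of 21 classes and lower in both in 1. In superficial epidermis-like cells it was 48.5% and 51.1% in the gSema4ab repeats against 40.9% in gControl, and among red blood cell-like cells, where it was the major gene, 69.4% and 73.9% against 68.1% in gControl. *psmd4a* itself was at 56.1 and 59.8 CPM over all cells in the gSema4ab repeats against 46.3 CPM in gControl, and *psmd4b* at 53.2 and 51.2 CPM against 53.1 CPM in gControl.

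The other pairs moved less. *psma6a* took 42.5% and 42.7% of *psma6a* and *psma6b* UMIs over all cells in the gSema4ab repeats against 41.2% in gControl, and its share was higher in both repeats in 15 classes and lower in both in 4. In superficial epidermis-like cells the share was 42.9% and 44.7% in the gSema4ab repeats against 35.6% in gControl, while in neutrophil-like cells it was 53.3% and 53.2% against 57.0% in gControl. *psmc1a* took 60.1% and 60.0% of *psmc1a* and *psmc1b* in the gSema4ab repeats against 58.6% in gControl (higher in both in 11 classes, lower in 4). *psmd11a* took 51.7% and 51.2% of *psmd11a* and *psmd11b* against 50.5% in gControl (higher in both in 7, lower in 6). Paralogues are near copies in part of their sequence, so that some reads may have been dropped or placed on the other gene.

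The inducible beta genes were rare, and none reached 20 CPM in any class. Among the classes their summed level was highest in macrophage/microglia-like cells, and other classes held them too. *psmb8a* encodes the inducible counterpart of *psmb5*. In macrophage/microglia-like cells it took 2.88% and 3.09% of the UMIs of *psmb8a* and *psmb5* in the gSema4ab repeats (66 of 2295 and 60 of 1939, exact binomial 95% intervals 2.23% to 3.64% and 2.37% to 3.97%), against 4.71% in gControl (96 of 2039, 3.83% to 5.72%). This difference of -1.73 points was between -1.05 and -1.02 points at other cluster resolutions or without integration, and -0.95 points without the cells that had at least 2 division genes. The share also depends on *psmb5*, which was higher in the repeats over all cells (log2 0.33). Relative to total UMIs of macrophage/microglia-like cells, *psmb8a* had 66 and 60 of 13064686 and 12129834 in the gSema4ab repeats against 96 of 13631761 in gControl. In neutrophil-like cells it took 1.16% and 1.05% in the gSema4ab repeats (9 of 778 and 8 of 762, 0.53% to 2.19% and 0.45% to 2.06%), against 3.84% in gControl (40 of 1043, 2.75% to 5.19%). The intervals of the gSema4ab repeats and gControl thus did not overlap in neutrophil-like cells, and in macrophage/microglia-like cells they overlapped for 1 repeat. In red blood cell-like cells, which served as background, the share was 0.12% and 0.23% in the gSema4ab repeats against 0.33% in gControl. Over 21 classes it was lower in both repeats in 7 and higher in both in 1, and most of the others had no *psmb8a* UMI in any library.

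**Figure D5:**
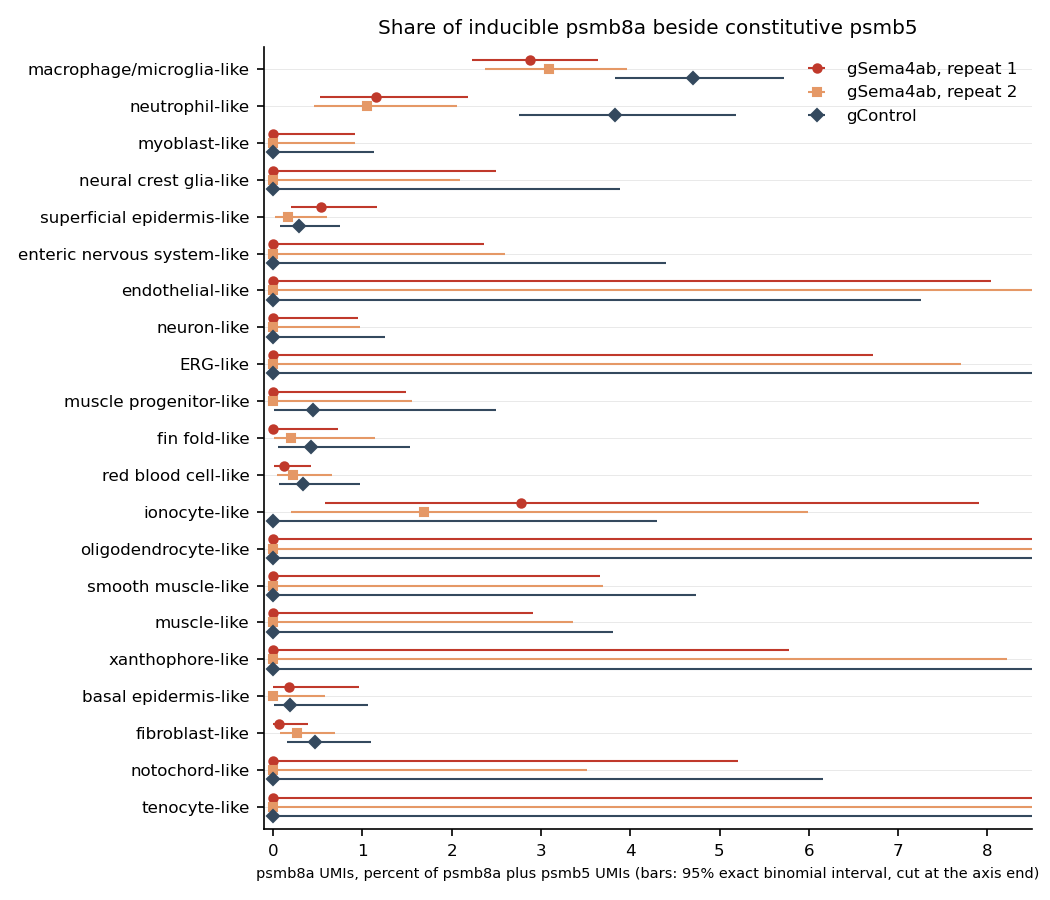
Percent of psmb8a among psmb8a and psmb5 UMIs (x axis) in 21 cell classes, with points for the gSema4ab repeats and gControl and bars for the 95% exact binomial interval, cut off at the end of the axis. In neutrophil-like cells the share is 1.16% and 1.05% in the gSema4ab repeats against 3.84% in gControl.

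Within the myeloid classes the share was tied to a few clusters. Cluster 16, a macrophage/microglia-like cluster with division genes among its leading genes, had 4.84% and 5.04% in the gSema4ab repeats against 6.51% in gControl, and cluster 7, the other one, 0.65% and 1.22% against 1.89%. In the neutrophil-like cluster 20, led by *mmp9* and *il1b*, *psmb8a* had 1 of 211 and 1 of 185 UMIs in the gSema4ab repeats (0.47% and 0.54%) against 20 of 232 in gControl (8.62%). The highest shares were in the unnamed cluster 18, with *csf1rb*, *syk*, *mef2b* and *wasa* among its leading genes, at 9.72% and 7.82% in the gSema4ab repeats against 11.03% in gControl. These clusters were picked for their *psmb8a* level after values were seen.

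By cells, 7.67% and 6.01% of the macrophage/microglia-like cells had a *psmb8a* UMI in the gSema4ab repeats (56 and 46 cells) against 9.54% in gControl (70 cells). These cells had a median of 16964.5 and 15327.5 UMIs in the gSema4ab repeats and 18613 in gControl. In red blood cell-like cells the share was 0.11% and 0.18% against 0.17% in gControl, at a median of 5227 and 5987 UMIs against 4196. When each cell was thinned to 2000 UMIs only 2 of 690 and 2 of 682 macrophage/microglia-like cells had one in the gSema4ab repeats (0.290% and 0.293%) against 6 of 679 in gControl (0.884%), too few to read an order from. This left out 40 and 84 cells in the gSema4ab repeats and 55 in gControl.

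Other inducible genes also had lower shares in the gSema4ab repeats than in gControl, beside constitutive beta genes in macrophage/microglia-like cells. *psmb9a* took 0.48% and 0.49% of *psmb9a* and *psmb6* UMIs in macrophage/microglia-like cells of the gSema4ab repeats against 0.75% in gControl. *psmb12*, a fish beta gene of the same family, had 30 and 28 UMIs in the gSema4ab repeats against 57 in gControl, which was 0.59% and 0.60% of *psmb12* and *psmb7* against 1.28%. Over 21 classes this share was higher in both repeats in 2 and lower in both in 6. With *psmb6* in place of *psmb7*, it was higher in both in 4 and lower in both in 4, so that the direction over classes depended on the partner chosen. *psmb13a* had 3 and 1 UMIs in the gSema4ab repeats against 13 in gControl. *psmb10*, the inducible counterpart of *psmb7*, took 3.39% and 3.23% of the pair in the gSema4ab repeats against 4.18% in gControl. Its own level differed little, with 13.5 and 12.8 CPM in the gSema4ab repeats against 14.1 CPM in gControl, while *psmb7* was higher in the repeats. In the RefSeq annotation of GRCz12tu, *psmb8a*, *psmb9a*, *psmb12* and *psmb13a* are neighbours on chromosome 19, and *psmb10* is on chromosome 4. *psmb11a* and *psmb11b*, the thymus-type beta genes, were at or near 0.

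The 7 inducible genes summed to 22.4 and 21.4 CPM in macrophage/microglia-like cells of the gSema4ab repeats against 28.4 CPM in gControl (log2 -0.37, -0.56 to -0.18). In neutrophil-like cells they summed to 9.64 and 8.92 CPM in the gSema4ab repeats against 14.5 CPM in gControl (log2 -0.63, -1.04 to -0.25). They went the other way in superficial epidermis-like cells, with 7.76 and 5.91 CPM in the gSema4ab repeats against 4.56 CPM in gControl, and among red blood cell-like cells, with 3.58 and 3.12 CPM against 2.16 CPM in gControl. Within macrophage/microglia-like cells of each library, the sum was higher in cells with division genes than in the others. Cells with at least 2 detected division genes made up 51.9% and 40.3% in the gSema4ab repeats and 54.6% in gControl, and held 28.3 and 30.1 CPM of inducible genes in the gSema4ab repeats against 36.5 CPM in gControl. The other cells held 10.8 and 9.29 CPM in the gSema4ab repeats against 11.3 CPM in gControl. The part of cell division in the difference between conditions was not tested.

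Dividing cells had more core subunit transcripts than other cells of their class relative to total UMIs, in all 7 classes with enough of them. A cell counted as dividing when at least 2 division genes had a UMI, which is easier to meet in cells with more UMIs. In gControl, 36 dividing fibroblast-like cells held 440581 UMIs and the 2892 others 22940655 UMIs, so that the dividing cells were deeper. In fibroblast-like cells the core sum of dividing cells was 3592 and 3455 CPM in the gSema4ab repeats and 3046 CPM in gControl, and that of other cells 2050 and 2025 CPM in the gSema4ab repeats and 1683 CPM in gControl. The log2 ratio of dividing over other cells was thus 0.81 and 0.77 in the gSema4ab repeats and 0.86 in gControl. It was smallest in the myeloid cells, with 0.17 and 0.18 in macrophage/microglia-like cells of the gSema4ab repeats against 0.30 in gControl. In red blood cell-like cells it was 1.93 and 2.19 in the gSema4ab repeats against 1.61 in gControl, but there the dividing cells also had a higher median over all genes, by 1.47 and 1.68 in the gSema4ab repeats. This median was 0.15 and 0.11 in basal epidermis-like cells of the repeats (0.17 in gControl) and 0.17 and 0.12 in myoblast-like cells (0.15). In fibroblast-like cells it was 0.013 and -0.047 in the repeats and -0.032 in gControl.

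The share of dividing cells differed between conditions in some classes. In red blood cell-like cells it was 17.6% and 15.8% in the gSema4ab repeats against 13.3% in gControl, and in basal epidermis-like cells 13.4% and 9.63% against 5%. In endothelial-like cells it was 14.5% and 15.7% against 6.85%, on only 9 and 8 dividing cells in the gSema4ab repeats and 5 in gControl. With the cells alone in which fewer than 2 division genes were detected, the core median was 0.43 in superficial epidermis-like cells, 0.37 in neuron-like cells and 0.31 in fibroblast-like cells, close to the values with all cells. Dividing cells were at most 2.80% of these 3 classes in any library, so that leaving them out could change little. The core median was 0.074 in muscle progenitor-like cells (0.20 with all cells), 0.25 in neural crest glia-like cells (0.35) and 0.042 in myoblast-like cells (0.086). In macrophage/microglia-like cells it was higher without dividing cells, at 0.11 against 0.018. It was 0.27 in endothelial-like cells, against 0.50 with all cells, and turned to -0.082 in red blood cell-like cells, against 0.27 with all cells. In these red blood cell-like cells the median of all genes was -0.45, so that the core genes still lay above it, and haemoglobin took 60.5% and 66.2% of the UMIs in the gSema4ab repeats against 51.2% in gControl. With all red blood cell-like cells 4 of 34 core genes were past the fold upward (3.35% of all genes), and 30 were with TMM factors (27.3% of all genes). *psmc3ip*, the gene that is no subunit, was higher in dividing cells in all 7 classes, by 4.68 and 4.43 on the log2 scale in fibroblast-like cells of the gSema4ab repeats and by 3.74 in gControl.

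Among members that reached the minimum, *psmc3ip* was also the only 1 past the fold in the myeloid cells. It was at 31.5 and 31.4 CPM in macrophage/microglia-like cells of the gSema4ab repeats against 20.8 CPM in gControl (log2 0.60, 0.40 to 0.80), and in neutrophil-like cells at 24.2 and 23.3 CPM against 17.7 CPM in gControl (log2 0.42, 0.12 to 0.73). In neutrophil-like cells it was below 20 CPM in gControl and reached the minimum through the gSema4ab repeats, while *psmd2*, lower in the repeats, fell below the minimum. The 19S chaperones were low. *psmd9* was at 31.5 and 28.9 CPM over all cells in the gSema4ab repeats against 25.8 CPM in gControl, *psmd10* at 24.97 and 21.3 CPM against 20.9 CPM, and *psmd5* at 8.38 and 8.81 CPM against 6.80 CPM. *psmd9* was past the fold upward in superficial epidermis-like cells (29.1 and 27.3 CPM in the gSema4ab repeats against 19.6 CPM in gControl, log2 0.52, 0.31 to 0.73) and in fin fold-like cells (25.7 and 24.0 CPM against 18.4 CPM, log2 0.44, 0.12 to 0.75). It was so in oligodendrocyte- and tenocyte-like cells, and *psmd10* in neural crest glia- and ERG-like cells, on few UMIs, and these 4 intervals spanned 0. Except for *psmd10* in ERG-like cells, gControl was below 20 CPM in each of these cases, and the minimum was reached through the gSema4ab repeats. In ERG-like cells *psmd10* was at 42.6 and 45.9 CPM in the gSema4ab repeats against 28.5 CPM in gControl (17 and 18 UMIs against 11, log2 0.61, -0.38 to 1.76).

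Other genes of the pathway came from lists that were chosen with earlier results of these data known. Of 16 genes for proteasome activators and assembly factors, 13 reached the minimum over all cells, with a median log2 ratio of 0.15 and 1 past the fold upward, *psmg1*, an assembly chaperone of the alpha ring (25.4 and 22.8 CPM in the gSema4ab repeats, 17.3 CPM in gControl). *psmg1* reached the minimum of 20 CPM through the gSema4ab repeats. *pomp*, which is needed to close the barrel, was at 192 and 187 CPM in the gSema4ab repeats against 159 CPM in gControl. Of 14 regulators of proteasome genes and their processing, 4 reached the minimum, with a median of -0.38 and 2 past the fold downward. These were *nfe2l2a* (Nrf2, a factor of the oxidative stress response), at 182 and 181 CPM in the gSema4ab repeats against 251 CPM in gControl, and its partner *mafk*, at 35.3 and 35.2 CPM against 55.5 CPM. Of 25 interferon response genes 4 reached the minimum, with a median of -0.49 and 3 past the fold downward, among them *stat1a* (53.2 and 52.3 CPM in the gSema4ab repeats, 86.6 CPM in gControl). Of 23 genes of MHC class I presentation 5 reached the minimum, with a median of -0.14 and 1 past the fold downward. Over all cells 25.6% of all genes were past the fold downward and their median was -0.12.

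In superficial epidermis-like cells more of these genes were higher, where 32.6% of all genes were past the fold upward and 17.0% downward. Of 13 activators and assembly factors 7 were past the fold upward and 1 downward, with a median of 0.41. *psme2*, part of an activator ring, was at 71.5 and 78.6 CPM in the gSema4ab repeats against 41.9 CPM in gControl, *pomp* at 229 and 236 CPM against 146.5 CPM, and *uchl5*, a deubiquitinase of the 19S particle, at 31.7 and 30.8 CPM against 15.9 CPM in gControl. *psmg3*, an assembly chaperone, was lower, at 21.0 and 18.2 CPM in the gSema4ab repeats against 39.8 CPM in gControl. Of 10 regulators 5 were past the fold upward and the median was 0.50. Those past it included *nfe2l1b* (27.1 and 29.6 CPM in the gSema4ab repeats, 18.4 CPM in gControl), *ddi2*, the protease that activates Nrf1 (29.4 and 25.2 CPM, 16.6 CPM in gControl), and *sel1l* and *syvn1* of degradation from the endoplasmic reticulum. The other Nrf1 gene, *nfe2l1a*, was below the minimum and lower, at 7.41 and 9.38 CPM in the gSema4ab repeats against 15.6 CPM in gControl (log2 -0.89, -1.20 to -0.59). *nfe2l2a* (log2 -0.18), *nfe2l2b* (-0.21) and *mafk* (-0.35) were lower in both repeats as well. Of 21 stress response genes 12 were past the fold upward and 4 downward. The chaperones of the endoplasmic reticulum in the MHC class I list were higher too, *calr* with 66.5 and 68.3 CPM in the gSema4ab repeats against 19.1 CPM in gControl and *pdia3* with 281 and 295 CPM against 102 CPM. The part of these genes in the core ratio of the class was not tested. *uchl5*, *nfe2l1b*, *ddi2* and *calr* were below 20 CPM in gControl and reached the minimum through the gSema4ab repeats. The counts and medians given for activators and assembly factors and for regulators include *uchl5*, *nfe2l1b* and *ddi2*, and can be raised by this.

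In the myeloid cells these lists lay on both sides of all genes. A median of 0.04 was found for 14 activators and assembly factors in macrophage/microglia-like cells, with 1 past the fold upward, and 5 genes of MHC class I presentation had a median of -0.29 with 1 past the fold downward. The median of all genes there was -0.11, below the first list and above the second. In neutrophil-like cells 4 of 5 genes of MHC class I presentation and 5 of 9 interferon response genes were past the fold downward, with 18.4% of all genes.

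The genes whose levels were most like the core sum over 63 points (21 classes in 3 libraries) were ranked among 4549 genes that were no members. The first was *pomp* (r = 0.96, and 0.95 without the 2 points farthest from the median), followed by *nsfl1c* (r = 0.91) and by *rbx1*, *rbm8a* and *vcp* (r = 0.89 each). *vcp* encodes the p97 ATPase that extracts ubiquitinated proteins, *nsfl1c* a cofactor of p97, and *rbx1* the RING subunit of cullin ubiquitin ligases. *rbm4.3* and *ddx39aa* (r = 0.88 each), the upper-case row PSMA2 and *ilf2* (r = 0.87 each) and *alyref* (r = 0.86) completed the first 10. The points share libraries, pools and depth, so that these correlations are descriptions only.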

How the data were processed

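Per the labels and the methods of the study, 3′ single-cell libraries were made with the 10x Genomics v3.1 chemistry and the authors used Cell Ranger 7.1.0 with the zebrafish genome GRCz11. The deposited values were counts of UMIs per gene and barcode, without normalization, in barcodes called as cells (14384 and 14163 in the gSema4ab repeats, 14398 in gControl). Counting of reads that fit several genes is a step of the authors that can move values between paralogues.

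Barcodes with at least 200 genes, 500 to 50000 UMIs, at most 20% mitochondrial UMIs and at most 20 UMIs per gene were kept (13650 and 13466 in the gSema4ab repeats, 13841 in gControl). The highest Scrublet scores (scanpy 1.11.5, Python 3.11.15), 0.8% per 1000 barcodes, were removed as doublets (1571 and 1526 against 1594), which left 113423532 and 114267348 UMIs in the gSema4ab repeats and 122658355 in gControl. Clustering used Seurat 5.3.0 (R 4.3.3, CCA integration, 30 dimensions, resolution 1, 1993 of 2000 variable genes). To be named, a cluster needed 3 or more markers of a class, each detected in 10% or more of its cells and 3-fold or more above other cells. These limits were refined after clusters had been seen.

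UMIs were summed per class and library and divided by total UMIs (CPM). A log2 ratio used 0.5 added UMIs and, for a joined value, both repeats. Genes with at least 20 CPM and 20 UMIs were tested against the fold of 1.25 (log2 0.32) that both repeats had to pass. Intervals were exact (Poisson, binomial or conditional binomial, 95%, scipy 1.17.1) and cover counting error only. The scripts were tested on simulated data. The members and lists were chosen with earlier results of these data known.

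Values are printed for the cutting beta subunits and the inducible ones, for members past the fold (over all cells, and the 3 largest each way in 5 classes), for members high in a class, for paralogues, for members that are not subunits, for the highest and lowest core member and for the 10 genes most like the core sum. Members named beyond this, such as *psmd1*, *psmd6*, *psmd12* and *psmd13*, were chosen after their values were seen. Alternatives were TMM factors (edgeR 4.0.16), totals without haemoglobin, each repeat alone, no doublet removal, removal of cells with mixed markers, equal weight per cell, other folds and minimums, other resolutions and no integration. A minimum of 50 CPM, only cells with fewer than 2 detected division genes, and sums with upper-case rows were added after seeing the data. Of the 47 symbols, 46 were matched in the RefSeq annotation of GRCz12tu, which was used for neighbours only.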

Additional observations from a re-analysis of the deposited data

Results flagged for a closer look

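In notochord-like cells the median core log2 ratio was -0.25, and in neutrophil-like cells it was -0.031, below 0 in both repeats of gSema4ab against gControl, where most classes were above 0 in both. In notochord-like cells 25.1% of all genes tested were past the fold downward. There 11 of the core genes that were past it downward were past it upward in other classes. Of the alpha genes these were *psma3* (log2 -0.49), *psma5* (-0.43) and *psma6b* (-0.46), of the constitutive beta genes *psmb1* (-0.47) and *psmb7* (-0.57), and of the ATPase genes *psmc5* (-0.62) and *psmc6* (-0.67). Among the other 19S genes they were *psmd3* (-0.48), *psmd11b* (-0.76), *psmd12* (-0.80) and *psmd13* (-0.83). *psmb7* was past the fold upward in 10 other classes and *psmc6* in 9, while *psma3* and *psmd13* were so in 1 class each. With equal weight per cell the core median in notochord-like cells was 0.22, and with TMM factors it was -0.076. In neutrophil-like cells it was 0.11 with TMM factors, so that both signs depended on the setting. The differences between classes were not tested, as each condition was taken as 1 pool.

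*psmc1b*, an ATPase gene, was lower in oligodendrocyte-like cells, at 31.0 and 23.5 CPM in the gSema4ab repeats against 45.7 CPM in gControl (log2 -0.71), and past the fold upward in 4 other classes. *psmd4b* was lower in myoblast-like cells, at 54.0 and 55.9 CPM in the gSema4ab repeats against 73.1 CPM in gControl (log2 -0.41), and past the fold upward in 2 other classes. Of all genes tested, 23.6% were past the fold downward in oligodendrocyte-like cells and 23.6% in myoblast-like cells. The differences of *psmc1b* and *psmd4b* were not tested either.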

How the results depend on the processing

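Of 795 values recomputed under alternatives, 125 of 168 that answer a comparison and 476 of 627 others stayed close to the reported one. With TMM factors the median of all genes over all cells turned to 0.088, the core median there was 0.39, that of macrophage/microglia-like cells 0.20 and that of neutrophil-like cells 0.11 (reversed), pairs of core gene and class past the fold numbered 346 upward and 9 downward, and 24 members passed upward over all cells. With equal weight per cell the core median turned to -0.11 in muscle-like cells and to 0.22 in notochord-like cells, fell to 0.020 in muscle progenitor-like cells (-0.074 and -0.0019 in the repeats) and was 0.27 and -0.0022 in the repeats of red blood cell-like cells. It was above 0 in both repeats in 16 of 21 classes, was 0.053 in macrophage/microglia-like cells, 2 members (*psmb5* and *psmd6*) passed upward over all cells, and the core sum in macrophage/microglia-like cells was 2.27-fold that of the median class (mean over libraries), against 2.18-fold as reported. That fold was 2.11 without haemoglobin, where 1 member (*psmb5*) passed, 1.91 with doublets kept, 2.26 without cells of mixed markers and 2.11 without integration. Without dividing cells the core median was -0.082 in red blood cell-like cells and 0.11 in macrophage/microglia-like cells. In macrophage/microglia-like cells it was also 0.080 with doublets kept, 0.062 at resolution 0.5 and 0.063 both at resolution 2 and without integration.

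Leaving out a repeat gave core medians of -0.0039 to 0.042 in macrophage/microglia-like cells, 258 to 335 upward and 32 to 35 downward pairs, 1 (*psmd4a*) to 5 members (*psmb3*, *psmb5*, *psmb7*, *psmc6* and *psmd6*) upward over all cells, and a *psmb8a* share lower by -1.83 to -1.61 points. At 1.5-fold 45 pairs were upward and 3 downward. Downward pairs numbered 6 with doublets kept, 27 at a minimum of 5 CPM, 27 with none and 8 at 50 CPM. Shares of all genes or pairs are given only for the reported setting and for TMM factors. Counts at the other settings thus show only how the calls depend on the setting. The core genes lay 0.39 above all genes with no minimum and 0.23 at 50 CPM. Over all cells *psmc3ip* passed upward at 5 CPM and with no minimum (1 member each), and 1 member (*psmd2*) downward at 5 CPM and 5 with none (*psmb8a*, *psmb9a*, *psmb12*, *psmb13a* and *psmd2*). The difference in *psmb8a* share in macrophage/microglia-like cells, -1.73 points as reported, was -1.46 with doublets kept, -1.48 without cells of mixed markers, -1.03 and -1.02 at resolutions 0.5 and 2, -1.05 without integration and -0.95 without dividing cells. The constitutive beta share was 1.59 points higher with doublets kept, against 1.67, and the counts of classes for the beta and other 19S shares stayed between 18 and 21. The cause of these changes was not tested. No paired analysis was possible because gControl had 1 library and the gSema4ab repeats were taken as 1 pool. Depth limited the inducible genes, of which many classes held 0 UMIs.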
